A study of Mus musculus with 72 samples.

Results

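The effect of a past sciatic nerve crush on the mature miRNAs of the left cortex was examined in male wild-type mice. The members are 11 of the 71 small RNA libraries in the deposited tables: 6 libraries from wild-type mice after crush and 5 from naive wild-type mice, chosen by genotype, region and treatment, with every mature miRNA row kept. The crush group had the right sciatic nerve crushed for 1 min under isoflurane at 12 weeks of age and carries the time label of 12 weeks after injury, which the naive group carries too. The left cortex lies opposite the injured limb. The study sequenced miRNAs of cortex, striatum and cerebellum from naive and nerve-injured wild-type and Thap1+/- mice. Thap1 encodes a zinc finger transcription factor whose human counterpart is mutated in DYT6 dystonia. The Thap1+/- cortex groups and the wild-type left striatum and right cerebellum groups serve here only to show where the wild-type cortex differs. The labels call the libraries of a group biological replicates, list 6 for naive wild-type cortex, of which 1 was not analysed here, and do not say whether a sham operation was done or whether the animals of different regions are the same. The column names of the 3 regions end in the same numbers within a group, which the labels do not explain.

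A miRNA is cut from a hairpin precursor whose 5′ and 3′ arms (5p and 3p) can each give a mature strand of about the same length, and usually one arm is kept as the guide strand while the other is degraded. The guide pairs through its seed, bases 2 to 8 from its 5′ end, with target mRNAs and lowers their translation and stability, so that miRNAs with a shared seed share many targets. In the adult cortex the let-7 family is among the most abundant miRNAs. It is known for holding cells in a differentiated state, and in C. elegans for limiting axon regrowth. The mature sequences of the miRNAs on which the results turn are given from RefSeq (GRCm38.p6), with the seed in capitals. A sequence was found there for 85.8% of the tested miRNAs. The first set is 5 members of the let-7 family, which all fell.
let-7a-5p: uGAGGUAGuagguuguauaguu
let-7c-5p: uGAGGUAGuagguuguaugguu
let-7f-5p: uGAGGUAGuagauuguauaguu
let-7g-5p: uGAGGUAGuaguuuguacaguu
miR-98-5p: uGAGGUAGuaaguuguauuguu
The second set shows 2 groups in which members with 1 seed did not move alike, miR-15/16 and miR-99/100.
miR-15a-5p: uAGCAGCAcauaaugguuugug
miR-15b-5p: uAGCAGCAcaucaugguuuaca
miR-195a-5p: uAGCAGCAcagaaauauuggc
miR-16-5p: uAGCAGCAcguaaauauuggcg
miR-99a-5p: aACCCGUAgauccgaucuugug
miR-99b-5p: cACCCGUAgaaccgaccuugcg
miR-100-5p: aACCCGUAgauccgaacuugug
The third set shows the paired miR-221-3p and miR-222-3p, and 2 strands of the imprinted Dlk1-Dio3 region that moved in opposite directions.
miR-221-3p: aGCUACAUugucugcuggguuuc
miR-222-3p: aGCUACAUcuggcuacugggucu
miR-434-3p: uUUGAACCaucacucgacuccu
miR-382-5p: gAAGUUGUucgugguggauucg
let-7a-5p differs from let-7c-5p at 1 position, as it does from let-7f-5p, and miR-99a-5p differs from miR-100-5p at 1 position. How the counting treated reads of such near-identical strands is not given in the sources used here, so levels of single members are less certain than sums over a family.

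Total miRNA counts ran between 8269320 and 9860344 in the 6 crush libraries and between 9067330 and 10587893 in the 5 naive libraries, with means of 8816520 ± 578233 and 9942120 ± 573500 (SD, n = 6 and n = 5). A count was seen for 661 ± 16.7 miRNAs per crush library and 637 ± 4.83 per naive library (SD). The first principal component, with 30.7% of the variance, put the crush libraries between -7.51 and -3.53 and the naive libraries between 5.74 and 10.1. On the second, with 19.2%, the naive libraries CX_wt_naive_118 and CX_wt_naive_124 lay at -8.92 and -7.05, apart from the other naive libraries, which lay between 4.50 and 9.14. No replicate pair agreed within sampling noise. The part of depth in the results below was not tested. Neuronal miRNAs were abundant, with miR-128-3p at 67634 ± 8066 CPM (counts scaled to a common library size, adjusted for composition) after crush and 64138 ± 5135 CPM in naive cortex (SD). The hindbrain miRNAs miR-196a-5p and miR-196b-5p did not pass the filter on low counts.

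The comparison of crush with naive cortex called 207 of the 506 miRNAs that passed the low-count filter, or 40.9%, at an adjusted p under 0.05 (edgeR quasi-likelihood test on counts with TMM scaling, Benjamini-Hochberg adjustment over all 506, two-sided). After crush 123 miRNAs were higher (24.3%) and 84 were lower (16.6%). Most changes were modest: the median size of the log2 fold change was 0.65 among the higher and 0.42 among the lower. In 111 miRNAs (21.9%) the libraries of the 2 groups did not overlap, with crush above naive in 69 (13.6%) and below in 42 (8.3%). Direction went with abundance. Of the 19 miRNAs at or above 10000 CPM, 11 were lower after crush and 2 higher, and most of the 11 were let-7 guide strands. Of the 39 between 1000 and 10000 CPM, 16 were lower and 6 higher, while of the 88 between 100 and 1000 CPM, 14 were lower and 29 higher. The plot of fold change against level shows most of the abundant miRNAs below the zero line.

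The split between higher and lower calls depends on how libraries are scaled, because a few abundant miRNAs take a large share of each library. With counts scaled by library totals alone, 252 were called, 233 higher and 19 lower, and the median log2 fold change of all tested miRNAs was 0.36, against 0.08 with TMM. With upper-quartile scaling 213 were called, 80 of them (37.6%) higher, with a median of -0.10, and with the RLE factors 208 were called, 108 higher and 100 lower. Changes are therefore best read relative to the median miRNA. The ratio of 2 arms within a library, given further on, does not depend on scaling.

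**Figure D1:**
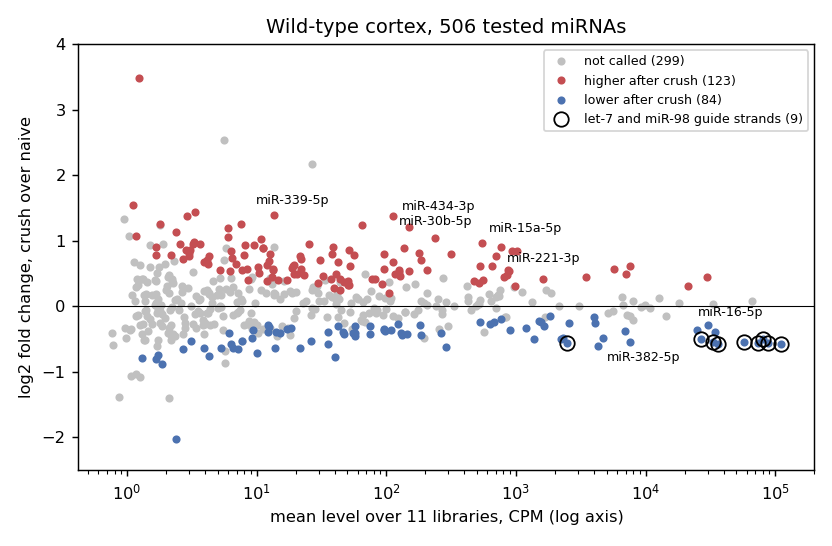
Log2 fold change (crush over naive) of each of the 506 tested miRNAs in wild-type cortex against its mean level in CPM on a log axis, with 123 higher miRNAs in red, 84 lower in blue and the 9 let-7 and miR-98 guide strands circled. All 9 circled points lie between -0.58 and -0.50.

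The let-7 family took a smaller share of the library after crush. Rows of the let-7 and miR-98 hairpins held 45.9% ± 2.64 of all counts after crush (SD, n = 6, 41.4% to 48.6%), against 55.2% ± 2.17 in naive cortex (SD, n = 5, 51.5% to 56.6%), and the libraries of the groups did not overlap. All 9 guide strands were lower after crush, where 16.6% of all tested miRNAs were, and in all 9 the crush libraries lay below every naive library. Their log2 fold changes lay between -0.58 for let-7d-5p and -0.50 for let-7e-5p/7k (one row for 2 hairpins), and all 9 also kept their direction and call with library totals alone.

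let-7c-5p, the most abundant miRNA of these libraries, had 75609 CPM in the lowest crush library, 90482 CPM at the crush median and 104284 CPM in the highest, against 123689, 132316, 134477, 138494 and 144454 CPM in the naive libraries. Every crush library was below every naive one, and the log2 fold change was -0.58 ± 0.07 (SE, adjusted p = 4.85e-05). let-7f-5p had 64491, 67642 and 71953 CPM (lowest, median and highest crush library), against 90599, 92909, 94816, 96675 and 107572 CPM in naive cortex (log2 fold change -0.51 ± 0.05, adjusted p = 1.31e-05). miR-98-5p, with the same seed at a far lower level, had 1669, 2064 and 2230 CPM after crush, against 2813, 2890, 2895, 3022 and 3216 CPM in naive cortex. It too fell without overlap (-0.55 ± 0.07, adjusted p = 8.23e-05). Summed over the seed GAGGUAG, the family stood at 420087 ± 30116 CPM after crush and 614539 ± 39742 CPM in naive cortex (SD, n = 6 and n = 5).

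**Figure D2:**
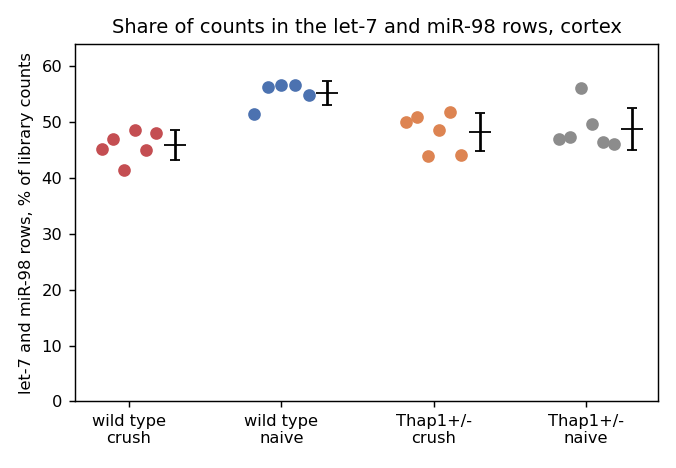
Share of each cortex library's counts in the let-7 and miR-98 rows, in percent, with points for libraries and bars for mean and SD. The 6 wild-type crush libraries sit between 41.4% and 48.6%, all below the 5 wild-type naive libraries, whereas the 2 Thap1+/- groups overlap.

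Families with 1 seed did not always move as a block. In the miR-15/16 family, whose known targets include Bcl2 and cyclin D1, the members miR-15b-5p, miR-195a-5p and miR-15a-5p rose while the far more abundant miR-16-5p fell. miR-15a-5p had 597, 701 and 790 CPM after crush (lowest, median, highest), against 303, 335, 343, 378 and 426 CPM in naive cortex. The groups were well apart, with a log2 fold change of 0.96 ± 0.10 (adjusted p = 1.31e-05). miR-16-5p had 28069, 30623 and 31727 CPM after crush, against 37388, 37403, 39317, 41641 and 42512 CPM in naive cortex. Again no library crossed over, in the other direction (-0.39 ± 0.05, adjusted p = 9.50e-05). miR-497a-5p and miR-322-5p were not called (log2 fold changes of 0.15 and 0.34, adjusted p = 0.318 and 0.0505). As miR-16-5p dominates the seed, the sum over the 6 members was 32796 ± 1563 CPM after crush and 41453 ± 2373 CPM in naive cortex (SD). The hairpins of miR-15b and of 1 copy of miR-16 lie side by side within Smc4 at chromosome 3, 69009772 to 69009996 (GRCm38.p6), plus strand.

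miR-99a-5p, of a family known to target mTOR, had 725, 1011 and 1085 CPM after crush (lowest, median, highest), against 471, 517, 522, 525 and 550 CPM in naive cortex. The crush libraries were all above the naive ones (log2 fold change 0.90 ± 0.10, adjusted p = 2.77e-05). miR-99b-5p rose less (0.31 ± 0.10, adjusted p = 0.026), and its groups overlapped. miR-100-5p, which was chosen for mention after its values were seen, averaged 491 ± 61.1 CPM after crush and 491 ± 27.9 CPM in naive cortex (SD). The hairpin of miR-99a lies beside one of the let-7c hairpins at chromosome 16, 77598936 to 77599750 (GRCm38.p6), plus strand, within Mir99ahg, so neighbours had opposite signs, though let-7c-5p is also made from a hairpin on chromosome 15. Likewise let-7e-5p/7k was lower and its neighbour miR-125a-5p higher (0.44 ± 0.12, adjusted p = 0.014) at chromosome 17, 17830352 to 17830879, plus strand, within Spaca6; the row let-7e-5p/7k also counts a hairpin on chromosome 5. miR-125b-5p, the mammalian relative of C. elegans lin-4, rose as well, averaging 8052 ± 1198 CPM after crush and 5751 ± 587 CPM in naive cortex (SD), though the groups overlapped.

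Other families moved in 1 direction or only in part, where 24.3% of all tested miRNAs were higher and 16.6% lower. All 3 miR-29 guide strands, known repressors of collagens and DNA methyltransferases, rose, and their sum was 49486 ± 6853 CPM after crush and 35141 ± 6138 CPM in naive cortex (SD). The libraries of the groups overlapped for each of the 3. Of 6 miR-30 members, miR-30b-5p, miR-30c-5p and miR-384-5p rose, while the abundant miR-30a-5p and miR-30e-5p had log2 fold changes of -0.01 and -0.03. Of 4 miR-181 members, miR-181a-5p, miR-181b-5p and miR-181d-5p fell, by 0.26, 0.27 and 0.34 on the log2 scale, but miR-181a-5p and miR-181b-5p had values just above 0 with library totals alone. Of 8 tested members of the miR-17-92 cluster and its paralogs, known for driving proliferation, miR-92a-3p and miR-19b-3p rose, and miR-93-5p fell.

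The leading single miRNA by p was miR-30b-5p. It had 275, 308 and 356 CPM after crush (lowest, median, highest), against 137.1, 147, 150, 150 and 171 CPM in naive cortex. The lowest crush library stood above the highest naive one by a wide margin, with a 2.06-fold difference (log2 fold change 1.04 ± 0.08, adjusted p = 6.01e-06). miR-434-3p, from the strand antisense to the imprinted gene Rtl1, had 140, 148 and 198 CPM after crush, against 49.1, 53.7, 62.5, 64.97 and 69.0 CPM in naive cortex. All crush libraries exceeded all naive ones, by 2.60-fold on the fitted means (1.38 ± 0.12, adjusted p = 7.22e-06). miR-487b-3p, also of the Dlk1-Dio3 region, had 170, 190 and 246 CPM after crush, against 75.03, 79.8, 84.7, 94.2 and 98.4 CPM in naive cortex. Here too the groups were apart (1.21 ± 0.11, adjusted p = 1.12e-05). miR-339-5p, at a lower level of 18.9 ± 2.79 CPM after crush and 7.19 ± 2.17 CPM in naive cortex (SD), had a log2 fold change of 1.39 ± 0.18 (adjusted p = 8.23e-05). Other leading strands were miR-380-3p of the Dlk1-Dio3 region, at 389 ± 44.4 CPM after crush and 225 ± 21.6 CPM in naive cortex (SD, 0.79 ± 0.09), and miR-499-5p, encoded within a myosin gene, at 37.4 ± 3.80 and 22.9 ± 1.64 CPM in crush and naive cortex (SD, 0.71 ± 0.09). miR-361-3p and miR-29c-5p, both rare partner strands, rose by 1.02 and 0.88 on the log2 scale.

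Outside the let-7 family, the 12 leading falls by p included several abundant strands. Rarer strands such as miR-184-3p, given further on, had larger fold changes. miR-382-5p, another Dlk1-Dio3 miRNA, had 3203, 3499 and 3615 CPM after crush (lowest, median, highest), against 4728, 5211, 5373, 5485 and 5522 CPM in naive cortex. The groups did not overlap (log2 fold change -0.61 ± 0.06, adjusted p = 1.12e-05). miR-151-5p had 5859, 6344 and 6671 CPM after crush, against 8503, 8622, 9251, 9615 and 9906 CPM in naive cortex. It was lower in every crush library (-0.54 ± 0.06, adjusted p = 1.80e-05). miR-674-5p and miR-30a-3p followed the same pattern, with log2 fold changes of -0.48 ± 0.05 and -0.49 ± 0.06. The 24 leading miRNAs are the 12 higher and the 12 lower of smallest p with a mean of at least 10 CPM. In all 24 the groups did not overlap, against 21.9% of all tested miRNAs. As the 24 were chosen by p in this same comparison, this only describes them.

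**Figure D3:**
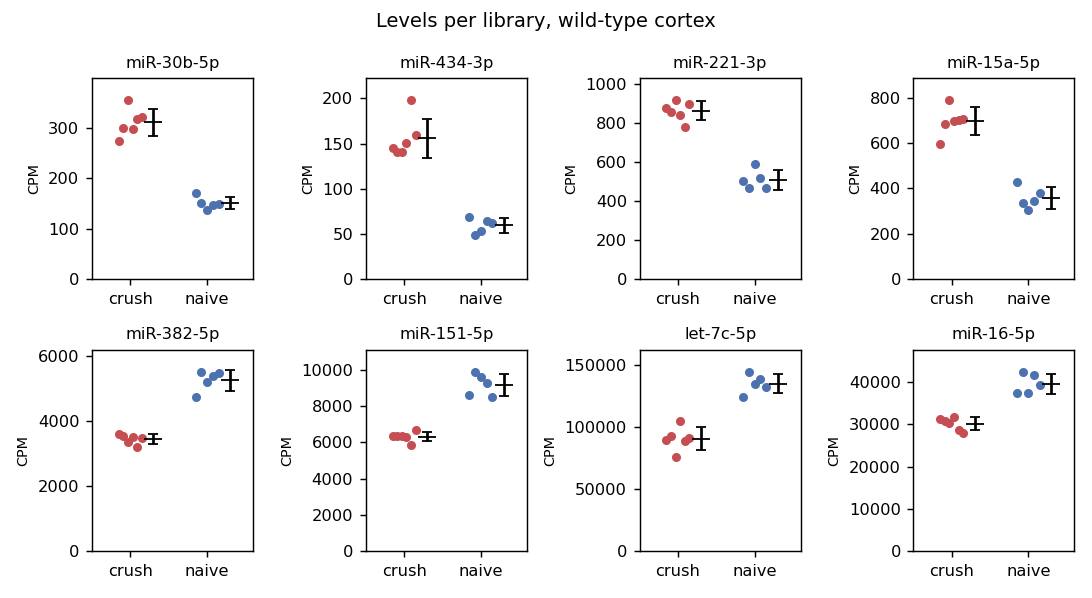
Levels in CPM of 8 miRNAs in each wild-type cortex library, crush in red and naive in blue, with mean and SD as bars. miR-30b-5p, miR-434-3p, miR-221-3p and miR-15a-5p are higher in all 6 crush libraries, and miR-382-5p, miR-151-5p, let-7c-5p and miR-16-5p are lower in all 6.

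Of 17 miRNAs known from work on nerve injury and its inflammation, 10 were higher after crush and 1 lower, where 24.3% and 16.6% of all tested miRNAs were. The median log2 fold change of the list was 0.40, against 0.08 for all tested miRNAs. This list, like the other lists here, was chosen with earlier results of these data known, so its counts and median only describe it. miR-221-3p, studied in Schwann cells of injured nerve, had 781, 870 and 920 CPM after crush (lowest, median, highest), against 467, 469, 506, 521 and 592 CPM in naive cortex. The groups were apart (0.76 ± 0.08, adjusted p = 1.31e-05). Its neighbour on the X chromosome, miR-222-3p, with the same seed, had 54.3, 56.1 and 57.8 CPM after crush, against 40.4, 40.6, 44.4, 46.6 and 51.2 CPM in naive cortex. The crush libraries were again all higher, by a smaller amount (0.33 ± 0.07, adjusted p = 0.00375). miR-21a-5p, a general injury-induced miRNA, averaged 528 ± 56.5 CPM after crush and 404 ± 37.8 CPM in naive cortex (SD), without overlap (0.38 ± 0.09, adjusted p = 0.00506). miR-145a-5p, typical of smooth muscle, averaged 64.6 ± 13.1 and 35.8 ± 5.60 CPM in crush and naive cortex (0.85 ± 0.15, adjusted p = 0.000677).

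The pair of immune regulators miR-146a-5p and miR-155-5p moved in opposite directions. miR-146a-5p, which is induced by NF-kB and dampens its signalling, had 46.2, 47.6 and 68.6 CPM after crush (lowest, median, highest), against 29.7, 30.5, 30.6, 33.4 and 35.7 CPM in naive cortex. All crush libraries were above all naive ones (0.67 ± 0.11, adjusted p = 0.000485). miR-155-5p, which promotes inflammatory responses, had 18.4, 21.0 and 26.2 CPM after crush, against 26.3, 27.9, 28.6, 35.8 and 38.1 CPM in naive cortex. The groups met closely without crossing (-0.54 ± 0.12, adjusted p = 0.00414). miR-132-3p, an activity-induced neuronal miRNA, had a log2 fold change of -0.02 ± 0.10 (adjusted p = 0.881). Of 7 activity-regulated miRNAs in all, miR-212-3p rose (0.37 ± 0.09, adjusted p = 0.00592) and miR-184-3p fell (-0.77 ± 0.22, adjusted p = 0.0145). Among all tested miRNAs 24.3% were higher and 16.6% lower.

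The imprinted Dlk1-Dio3 region on chromosome 12, whose maternally expressed transcripts carry a large cluster of brain miRNAs, held both directions. Of 107 arms of its hairpins with a row, 80 passed the filter. After crush 26 of these were higher and 15 lower, not far from the 24.3% and 16.6% of all tested miRNAs. In the distal block, chromosome 12, 109709060 to 109747960 (GRCm38.p6), plus strand, 15 of 50 arms were higher and 9 lower. In the proximal block at 109563692 to 109595388, 7 of 19 arms were higher and 4 lower. miR-341-3p had 994, 1122 and 1312 CPM after crush (lowest, median, highest), against 535, 571, 649, 661 and 808 CPM in naive cortex. The groups did not overlap (0.84 ± 0.11, adjusted p = 8.23e-05). miR-127-3p, the most abundant arm of the region, averaged 9861 ± 748 CPM after crush and 9770 ± 578 CPM in naive cortex (SD, log2 fold change 0.01 ± 0.06, adjusted p = 0.876). miR-136-3p rose (0.85 ± 0.24, adjusted p = 0.0145), yet 1 naive library, CX_wt_naive_118, had 1283 CPM and lay within the crush range of 1029 to 1700 CPM.

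The arms of single hairpins were compared next. The ratio of the 5p to the 3p count was compared in the 121 hairpins with both arms past the filter, and it differed between crush and naive cortex in 60 of them, or 49.6% (limma on log2 ratios, Benjamini-Hochberg adjustment over the 121). The ratio was higher after crush in 18 and lower in 42. In 37 of the 60 it moved toward the less abundant arm, and in 23 toward the more abundant one. Over all 121 hairpins, called or not, the ratio lay toward the less abundant arm in 67. In 16 hairpins the arms were called in opposite directions, and in 14 of the 16 the rarer arm was the higher one. Unlike the ratio, such calls depend on scaling: with library totals alone 8 hairpins were called so, and miR-411-5p and miR-379-5p were no longer lower. Of the 33 hairpins of the Dlk1-Dio3 region, 5 (15.2%) had opposite calls, close to the 13.2% of all hairpins, and with library totals alone 1 had. In 13 hairpins both arms were higher, and in 0 both were lower.

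For miR-411, the log2 ratio of 5p to 3p was 6.84 ± 0.11 after crush and 8.05 ± 0.14 in naive cortex (SD, n = 6 and n = 5), a difference of -1.21 ± 0.09 (SE, adjusted p = 4.58e-06). The abundant miR-411-5p was lower (-0.26 ± 0.07) while the rare miR-411-3p had 28.7, 33.4 and 35.2 CPM after crush, against 13.8, 15.3, 17.3, 17.9 and 19.5 CPM in naive cortex (0.95 ± 0.10). For miR-379 the ratio was 5.51 ± 0.13 after crush and 6.50 ± 0.07 in naive cortex. For miR-382 it was 8.76 ± 0.22 and 10.25 ± 0.49 in crush and naive cortex. miR-337 behaved likewise: its 3p arm rose (0.79 ± 0.13) and its 5p arm fell (-0.36 ± 0.06), but with library totals alone its arms were not called in opposite directions. Outside the region, let-7i and let-7g showed the pattern too, since their rare 3p arms rose (1.05 ± 0.17 and 0.95 ± 0.22) as the guide strands fell. The 3p arms of the let-7 hairpins had only a few CPM, 7.88 ± 1.41 and 4.65 ± 0.944 after crush for let-7i-3p and let-7g-3p, against 3.78 ± 0.822 and 2.39 ± 0.720 in naive cortex (SD).

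Exceptions were miR-30b and miR-125a, where the abundant 5p arm rose and the 3p arm fell. For miR-30b the log2 ratio was 3.02 ± 0.17 after crush and 1.69 ± 0.17 in naive cortex (SD), a difference of 1.34 ± 0.11 (adjusted p = 4.58e-06). miR-30b-3p had 35.6, 37.9 and 42.0 CPM after crush, against 41.4, 46.7, 47.4, 48.9 and 50.0 CPM in naive cortex. The groups overlapped by a narrow margin, and the fall was called (-0.30 ± 0.07, adjusted p = 0.00597). For miR-222, the 3p arm given above rose and the 5p arm fell (-0.31 ± 0.09, adjusted p = 0.0166). With library totals alone the arms of miR-30b, miR-125a and miR-222 were not called in opposite directions. With upper-quartile scaling those of miR-30b still were, and those of miR-125a and miR-222 were not.

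**Figure D4:**
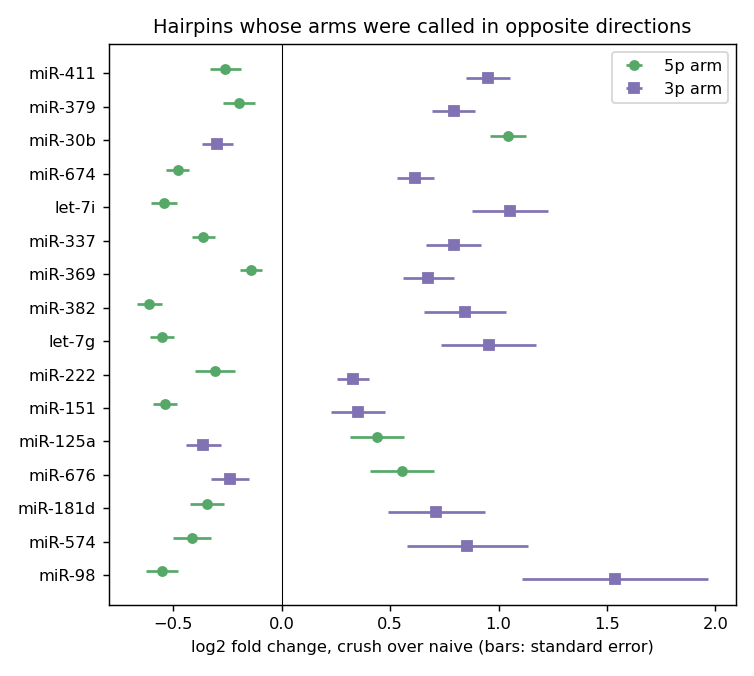
Log2 fold change (crush over naive) of the 5p arm (circles) and 3p arm (squares) of the 16 hairpins whose arms were called in opposite directions, with standard errors as bars. In all but miR-30b, miR-125a and miR-676 the 5p arm lies left of 0 and the 3p arm right of it.

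Markers of the cell types of the cortex did not move as blocks. Their counts stand against 24.3% higher and 16.6% lower among all tested miRNAs. In bulk tissue fewer cells of a type and less of a miRNA per cell cannot be told apart. Of 11 neuronal miRNAs 5 were higher and 1 lower, and their sum ran between 146145 and 188210 CPM after crush and between 146540 and 173823 CPM in naive cortex. miR-124-5p rose (0.81 ± 0.11, adjusted p = 8.23e-05), as did miR-218-5p, known from motor neurons (0.48 ± 0.09, adjusted p = 0.000952), miR-153-3p, miR-9-3p and the shared row of miR-129-1-3p and miR-129-2-3p. The much more abundant miR-124-3p, named after its values were seen, had a log2 fold change of -0.15 ± 0.10 (adjusted p = 0.242). miR-129-5p fell, averaging 1864 ± 149 CPM after crush and 2642 ± 256 CPM in naive cortex (SD, -0.50 ± 0.08, adjusted p = 0.000292). Of 5 astrocyte-enriched miRNAs, miR-29a-3p and miR-29b-3p rose, and miR-26a-5p, miR-26b-5p and miR-31-5p fell. Their summed level was 71675 to 82332 CPM after crush and 68350 to 79240 CPM in naive cortex. Of 6 oligodendrocyte miRNAs 2 rose, miR-23a-3p/23b-3p (0.35 ± 0.06, adjusted p = 0.000703) and miR-219a-5p, with sums of 19768 to 22854 CPM after crush and 19362 to 22846 CPM in naive cortex. Most of this sum came from miR-138-5p, which is on the neuronal list as well, so the sum says little of oligodendrocytes. miR-219a-5p had the largest fitted fold change of any called miRNA, but was near the detection limit, with 1.21, 1.99 and 3.19 CPM after crush (lowest, median, highest) and 0, 0, 0, 0.350 and 0.555 CPM in naive cortex.

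The summed level of the microglial and leukocyte miRNAs ran between 1028 and 1231 CPM after crush and between 745 and 853 CPM in naive cortex, without overlap. Its largest part was miR-21a-5p, named above as a general injury-induced miRNA. Of the 8 members of this list 5 rose, against 24.3% of all tested miRNAs, namely miR-21a-5p, miR-142a-3p, miR-142a-5p, miR-146a-5p and miR-146b-5p, and miR-155-5p fell, against 16.6% of all tested. miR-146b-5p averaged 147 ± 11.3 CPM after crush and 106.1 ± 7.92 CPM in naive cortex (SD, 0.46 ± 0.08, adjusted p = 0.000440), and the groups did not overlap. miR-142a-3p overlapped between groups (0.41 ± 0.14, adjusted p = 0.0321). None of the 3 tested red cell miRNAs was called, and their sum was 39.3 to 178 CPM after crush and 28.6 to 111 CPM in naive cortex. The vessel list had a lower sum after crush, 31372 to 37797 CPM, against 39308 to 46927 CPM in naive cortex, again without overlap. Most of the vessel sum came from 1 strand, miR-126a-3p of endothelial cells. Neither the vessel sum nor the microglial and leukocyte sum was computed with other scalings. Of the 7 members of the vessel list 4 were not called, and both arms of miR-145a rose. miR-126a-3p fell, with 20103, 21985 and 24686 CPM after crush (lowest, median, highest), against 27260, 27352, 27375, 28150 and 32289 CPM in naive cortex. The endothelial strand was lower in every crush library (-0.36 ± 0.07, adjusted p = 0.0011).

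The sums of the remaining marker lists overlapped between crush and naive cortex, and their counts stand against the same 24.3% and 16.6%. Of 6 choroid plexus and ependyma miRNAs, miR-204-5p and miR-34b-5p rose, with sums of 192.5 to 294 CPM after crush and 183.9 to 264 CPM in naive cortex. Of 4 miRNAs graded between brain regions, miR-383-5p fell, with sums of 9209 to 12019 CPM after crush and 9726 to 13257 CPM in naive cortex. Of 4 muscle miRNAs, miR-499-5p and the shared row of miR-133a-3p and miR-133b-3p rose and miR-1a-3p fell, with sums of 1372 to 1733 CPM after crush and 1465 to 1918 CPM in naive cortex. Neither of the 2 hindbrain miRNAs tested was called, and they summed to at most 17.6 CPM after crush and 17.1 CPM in naive cortex. The liver miRNA miR-122-5p was at 40.1 ± 2.62 CPM after crush and 52.9 ± 8.33 CPM in naive cortex (SD), and was called lower. miR-192-5p, at 15.5 ± 2.15 and 10.6 ± 1.52 CPM in crush and naive cortex (SD), was called higher. The part of cell makeup in the changes above was not tested.

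The crush effect of wild-type cortex was set against that of Thap1+/- cortex in 1 model of all 4 cortex groups, with 549 miRNAs tested. In this model 35% were called for wild-type cortex. The difference between the genotypes was called for 74 (13.5%), and the effect within Thap1+/- cortex for 4 (0.729%). Both counts depend on 1 library, the one labelled Thap1+/- naive as CX_DYT6KO_naive_18. Its let-7 share of 56.1% lay within the wild-type naive range, while the other 5 of its group lay between 46.1% and 49.6%. Its miR-30b arm ratio, given below, was also on the side of the wild-type naive libraries. Whether its label is correct was not tested, so the counts with and without it are given side by side. Without it the difference was called for 182 of 548 (33.2%), 110 positive and 72 negative, and the effect within Thap1+/- cortex for 20 (3.65%). With the let-7 rows removed from the full set, 63 differences were called, 50 positive and 13 negative, against 43 and 31 with them. Without 1 wild-type library at a time the count lay between 50 and 99.

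miR-434-3p had a log2 fold change of 1.36 ± 0.26 in wild-type cortex and -0.14 ± 0.24 in Thap1+/- cortex, and the difference of 1.50 ± 0.35 was called (adjusted p = 0.013). For miR-30b-5p the effects were 1.02 ± 0.20 in wild-type and -0.04 ± 0.18 in Thap1+/- cortex, with a difference of 1.07 ± 0.27 (adjusted p = 0.0134). For miR-382-5p the difference was -0.72 ± 0.15 (adjusted p = 0.0124). miR-15a-5p and let-7c-5p also differed, by 0.89 ± 0.23 (adjusted p = 0.0148) and -0.60 ± 0.15 (adjusted p = 0.0134). For miR-221-3p the effects were 0.74 ± 0.14 and 0.32 ± 0.14 in wild-type and Thap1+/- cortex, and their difference of 0.42 ± 0.20 was not called (adjusted p = 0.142). Without CX_DYT6KO_naive_18 the differences were 1.66 for miR-434-3p, 1.21 for miR-30b-5p, 1.03 for miR-15a-5p, -0.84 for miR-382-5p and -0.70 for let-7c-5p, each still called, and 0.45 for miR-221-3p (adjusted p = 0.0918), still not called.

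The levels show which group stood apart. miR-30b-5p had 271 to 355 CPM in wild-type crush, 136.6 to 177 CPM in wild-type naive, 229 to 333 CPM in Thap1+/- crush and 133.6 to 368.8 CPM in Thap1+/- naive cortex, where the lowest value was that of CX_DYT6KO_naive_18 and the median was 338.1 CPM. Of the 207 miRNAs called in wild-type cortex, the Thap1+/- naive mean lay nearer to the wild-type crush mean than to the wild-type naive mean in 177, and the Thap1+/- crush mean did so in 177 as well. This is a description, since the 207 were chosen for the distance between the wild-type groups. The arm ratios showed the same layout: the log2 ratio of miR-30b was 3.02 ± 0.17 in wild-type crush, 1.69 ± 0.17 in wild-type naive, 2.69 ± 0.28 in Thap1+/- crush and 2.70 ± 0.76 in Thap1+/- naive cortex (SD), and 1.37 in CX_DYT6KO_naive_18. A common handling of the 5 wild-type naive cortex libraries and their group cannot be told apart, as the labels give no batch.

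In the other regions of wild-type mice the cortical pattern was not seen. In a model of the 3 regions, which called 32.1% of 635 miRNAs for wild-type cortex, the count after crush was 1 (0.157%) in striatum and 9 (1.42%) in cerebellum. The crush effect of cortex differed from that of striatum for 175 of 635 miRNAs (27.6%) and from that of cerebellum for 188 (29.6%). These split into 105 positive and 70 negative for striatum and 113 positive and 75 negative for cerebellum, but with the RLE factors into 96 and 96 for striatum and 95 and 100 for cerebellum. Of the 207 miRNAs called in cortex, 185 had the opposite sign in striatum and 151 in cerebellum. The median size of their effect was 0.55 in cortex, 0.16 in striatum and 0.16 in cerebellum on the log2 scale. The 207 were chosen for their calls in cortex, which favours a larger size there, so these sizes only describe them.

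The only miRNA called in striatum was miR-221-3p, with a log2 fold change of -0.46 ± 0.08, where cortex had 0.73 ± 0.08 in the same model and cerebellum -0.24 ± 0.08. The cortex effect differed from the striatal one by 1.19 ± 0.12 (adjusted p = 6.47e-09) and from the cerebellar one by 0.97 ± 0.12 (adjusted p = 1.53e-07). miR-15a-5p was called lower in cerebellum (-0.37 ± 0.09, adjusted p = 0.0166) and higher in cortex (0.93 ± 0.09). For miR-30b-5p the differences were 1.33 ± 0.14 from striatum and 1.30 ± 0.14 from cerebellum, and for miR-434-3p 1.78 ± 0.21 and 1.64 ± 0.21. let-7c-5p had -0.61 ± 0.10 in cortex, 0.10 ± 0.10 in striatum and 0.25 ± 0.10 in cerebellum. The let-7 share was 46.8% ± 2.34 after crush and 44.5% ± 1.85 in naive striatum, and 61.2% ± 3.08 after crush and 58.4% ± 2.25 in naive cerebellum (SD, n = 6 each). RNA of cerebellum was extracted with another kit than that of cortex and striatum, per the labels, so region and kit cannot be told apart in levels, though both treatments of a region shared a kit.

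**Figure D5:**
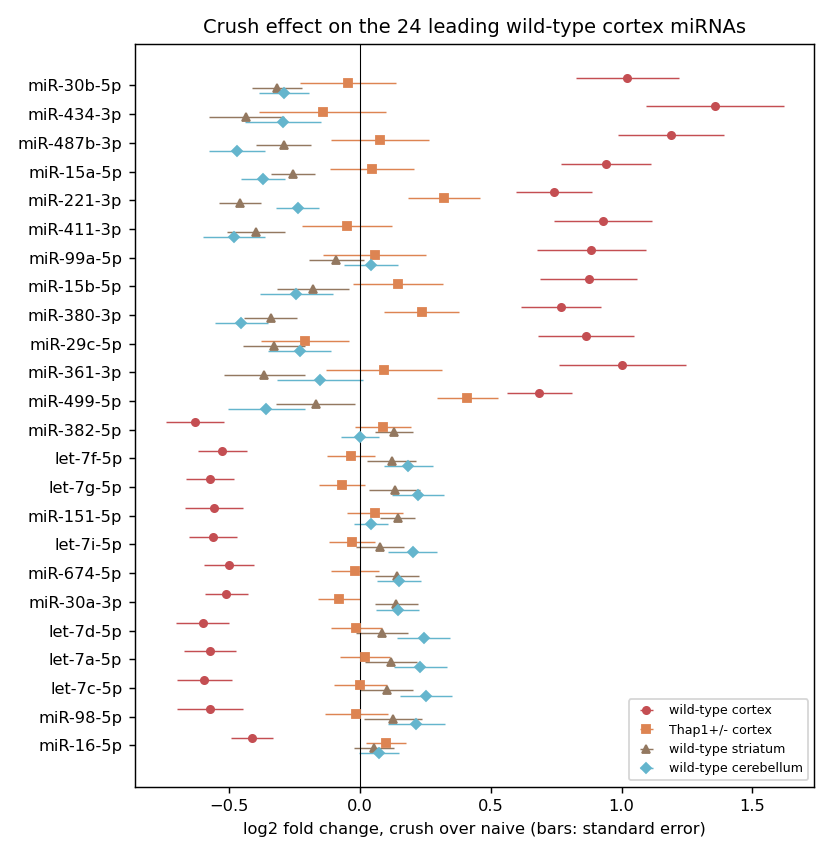
Log2 fold change (crush over naive, with standard error) of the 24 leading miRNAs of wild-type cortex in wild-type cortex, Thap1+/- cortex, wild-type striatum and wild-type cerebellum. The wild-type cortex points stand at least 0.41 from 0, and those of striatum have the opposite sign for all 24. The 24 were chosen by p in wild-type cortex, which favours a larger distance from 0 there.

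Among miRNAs with a sequence, the median GC content was 45.5% for the 108 higher, 50.0% for the 72 lower and 50.0% for the 254 not called, and no test of these differences was made. Over the 250 with a sequence and at least 10 CPM, Spearman's rho of the log2 fold change was -0.25 with GC content and -0.22 with abundance, across miRNAs of the same libraries. The part of base composition in the results was not tested.

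The authors' deposited table for the same comparison gives an adjusted p for 662 miRNAs and calls 175, of which 94 are higher and 81 lower. Of these, 163 were among the 207 called here, which is 93.1% of the authors' calls and 78.7% of those here, and in 0 of the shared calls did the direction differ. The threshold cuts through a continuum: miR-29a-5p lay just inside (adjusted p = 0.0489), and miR-322-5p (0.0505) and miR-132-5p (0.059) just outside.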

How the data were processed

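Per the labels' protocols, each QIAseq miRNA library took 10 ng of input RNA. The authors deposited 12 tables, of which 3 were used, with raw counts of 1927 mature miRNA rows per library. Per the submitters' processing notes they used featureCounts 1.6.4 and R 4.1.0. Aligner, annotation, genome build and handling of molecular identifiers were details not given in the sources used here. The log2 fold changes and adjusted p-values of the authors' deposited table were used only for comparison. Libraries were grouped by column name, and 521 columns of per-sample values were not used.

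Counts were filtered with filterByExpr, scaled by TMM and tested with edgeR 4.0.16 (quasi-likelihood test, Benjamini-Hochberg adjustment over all miRNAs tested, threshold 0.05), in R 4.3.3. CPM are TMM-scaled. Standard errors are of the fitted log2 fold changes, crush over naive. Interactions used models of the 4 cortex groups or of the 3 wild-type regions. Arm ratios were log2 of the counts plus 0.5, tested with limma 3.58.1. The scripts were tested on simulated data. DESeq2 1.42.0, other scalings and filters, and leaving out libraries were alternatives. Named miRNAs are the 12 higher and 12 lower of smallest p with at least 10 CPM, called or most abundant members of 20 lists, and members of arm pairs and seed families. The members and lists were chosen with earlier results of these data known. No library was excluded. Adjusted p-values measure the spread between these samples only, and CPM, shares and intervals carry counting error besides.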

Additional observations from a re-analysis of the deposited data

Results flagged for a closer look

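Each named miRNA, with the let-7 share, total count, TMM factor and number of detected miRNAs, was checked in the crush and in the naive group of wild-type cortex, and in 15 of these sets of 6 or 5 libraries (7.28%) 1 library lay far from the rest. Chance alone flags about 1 in 20 such sets. High values in the crush group were 198 CPM of miR-434-3p and 16.9 CPM of miR-29c-5p in CX_wt_crush_2, and 68.6 CPM of miR-146a-5p, 9380 CPM of miR-29c-3p and 856 CPM of miR-379-5p in CX_wt_crush_139. CX_wt_crush_139 was also high for miR-142a-5p at 173 CPM, and low for miR-26a-5p at 22280 CPM and miR-31-5p at 845 CPM. CX_wt_crush_14 was high for miR-204-5p at 119 CPM, and CX_wt_crush_3 for miR-34b-5p at 6.17 CPM. In naive cortex, CX_wt_naive_118 was high for miR-138-5p at 19963 CPM, miR-136-3p at 1283 CPM, miR-124-5p at 163 CPM and miR-146b-5p at 120.2 CPM, and CX_wt_naive_124 for miR-126a-3p at 32289 CPM.

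The crush effect differed, by a test of the difference, between wild-type and Thap1+/- cortex for 74 miRNAs, between wild-type cortex and striatum for 175 and between wild-type cortex and cerebellum for 188. As log2 differences, the wild-type effect exceeded that of Thap1+/- cortex by 1.07 for miR-30b-5p, 1.50 for miR-434-3p and 0.89 for miR-15a-5p, and the difference was -0.72 for miR-382-5p and -0.60 for let-7c-5p. Cortex minus striatum was 1.33 for miR-30b-5p, 1.78 for miR-434-3p, 1.19 for miR-221-3p, 1.19 for miR-15a-5p, -0.77 for miR-382-5p and -0.71 for let-7c-5p. Cortex minus cerebellum was 1.30 for miR-30b-5p, 1.64 for miR-434-3p, 0.97 for miR-221-3p, 1.30 for miR-15a-5p, -0.64 for miR-382-5p and -0.86 for let-7c-5p.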

How the results depend on the processing

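For the crush effect in wild-type cortex, 207 calls became 156 with a mean of at least 10 CPM required, 183 with no filter, 186 with let-7 removed, and 208 with limma-trend. The fit of all 4 cortex groups called 35%, and DESeq2 kept the count within 1.5 times. Leaving out 1 library at a time gave 177 to 216. Without CX_wt_naive_118 and CX_wt_naive_124, an alternative chosen after seeing the data, it was 200, of which 171 were among the 207. Among the 99 named miRNAs, 1910 of 2060 alternative values kept their call or lack of one, 12 gained a call and 9 reversed. A reversal was counted only where the main or the alternative value was called. Changes of sign with neither value called are among those kept. All remaining values were weaker, which was the most common change. Of these, 14 came with upper-quartile scaling and 13 with library totals only. All 9 reversals came with library totals only. The log2 fold changes then became 0.0859 for miR-379-5p, 0.0242 for miR-411-5p, 0.28 for miR-100-5p, 0.27 for miR-30a-5p and 0.26 for miR-30e-5p. They became 0.0193 for miR-181a-5p, 0.018 for miR-181b-5p, 0.0634 for miR-93-5p and 0.0448 for miR-1a-3p. With that scaling the median of all tested miRNAs was 0.36.

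Arm ratio calls were 35 of 58 hairpins with both arms at or above 10 CPM (fewer hairpins were tested), 61 with a pseudocount of 5, 58 without CX_wt_naive_118 and CX_wt_naive_124, and 51 to 63 without 1 library. The let-7 share differed by -10.2 to -8.38 percentage points, against -9.27 with all libraries. The genotype difference was called for 182 miRNAs without CX_DYT6KO_naive_18, also chosen after seeing the data (the cause was not tested), for 98 with DESeq2, and for 50 to 99 without 1 wild-type library. The difference from striatum was called for 165 to 189 miRNAs and that from cerebellum for at least 165 without 1 cortex library.

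Crush and naive cortex came from different mice, so that comparison holds no pairs. The columns carry no replicate number of the labels. The numbers ending the column names recur in the 3 regions. Deviations of same-numbered libraries from their group means correlated at -0.21 to 0.13 between cortex and striatum (over 0.1 in 1 of 11 pairs, best with its own number in 2), and at -0.04 to 0.18 between cortex and cerebellum (over 0.1 in 4 of 11, best in 5). These 5 were all of the naive cortex libraries, and no crush library of cortex matched its own number best. Between striatum and cerebellum the correlations were -0.08 to 0.15 (over 0.1 in 3 of 12 pairs, best in 3). These 3 were of the crush group. Whether same numbers mean the same animal is therefore not settled, and the main models did not take the numbers as pairs. With a replicate block on that number, chosen after seeing the data, the difference from striatum was called for 30.4% of miRNAs (118 positive and 75 negative) and that from cerebellum for 29.4% (114 positive and 73 negative), so neither count moved by over 1.5 times. For miR-30b-5p these differences were 1.32 and 1.29, and for let-7c-5p -0.71 and -0.86. Depth limits rare strands most. The 217 tested miRNAs under 10 CPM gave 37 higher and 17 lower calls.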
